A study of Mus musculus with 2 samples.

Results

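The MAP kinase phosphatases are dual-specificity phosphatases that remove phosphate from both the threonine and the tyrosine of the activation loop of ERK, JNK and p38, and thereby switch these kinases off. Several of them are transcribed in response to the kinases they inactivate, which makes them feedback inhibitors. In macrophages some of them, though not all, are known for limiting the cytokine response to microbial products. They were read here as 10 genes, *Dusp1*, *Dusp2*, *Dusp4*, *Dusp5*, *Dusp6*, *Dusp7*, *Dusp8*, *Dusp10*, *Dusp14* and *Dusp16*, of 20655 named genes on the array. The genes were chosen by name, with earlier results of these data known. Every probe whose RefSeq accession belonged to 1 of them was used, and all 10 were found, on 12 probes.

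RAW264.7 is an established macrophage line from a tumor induced by Abelson murine leukemia virus in a male BALB/c mouse. 1 culture was treated with vehicle control and 1 culture with 10 μM IR-61, a near-infrared fluorescent small molecule that accumulates in mitochondria, both for 24 h in DMEM with serum, and the RNA was read on single-colour Agilent mouse arrays, 1 for each culture. The labels and the methods name no stimulus such as LPS for these cultures, and the dose is the one given in a figure legend of the study. With 1 array per condition no test between the conditions was possible, and all differences below are descriptions of these 2 cultures.

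The IR-61 array was brighter as a whole, with a 75th percentile of the signal of 1772.0 against 1263.2 on the vehicle array. Signals were therefore divided by the 75th percentile of their array, and a log2 difference is IR-61 minus vehicle on this scale. The share of probes well above background was 77.6% with vehicle and 81.2% with IR-61, with lowest signals of 12.8 and 15.0 among them. Of the macrophage markers 9 of 9 genes with a probe were well above background on both arrays, with a summed level of 160.9 times the 75th percentile with vehicle and 213.7 times with IR-61. This sum runs over different probes and the brightest of them weigh most, and by gene 5 of the 9 were lower and 4 higher, with a median log2 difference of -0.04. They ran from *Cd14*, a co-receptor for LPS, at -0.98 (past 2-fold in 6 of 11 other settings) to *Adgre1*, which encodes F4/80, at 1.03 (past 2-fold in 8 of 11). Of the T and B lymphocyte markers this held for 7 of 8, with summed levels of 2.13 and 2.0, and *Cd3g* was not above background. The B cell gene *Ms4a1* was lowest of these at -1.46 and *Cd8a* highest at 0.16, the latter -0.08 with normexp background correction. Of the fibroblast and epithelial markers it held for 5 of 7, with summed levels of 34.3 and 46.9, most of it from *Col1a1* and *Col1a2*, while *Epcam* and *Cdh1* were not above background. *Krt18*, a keratin gene, was lowest at -0.51. *Col1a1*, which encodes a chain of fibrillar collagen, was highest at 0.62, with a signal of 27148 with vehicle and 58670.1 with IR-61. The part of these markers in the results below was not tested. In bulk RNA of 1 cell line, fewer cells expressing a gene and less of its RNA per cell cannot be told apart.

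All 10 phosphatases were well above background on both arrays. With IR-61 *Dusp4* and *Dusp6* were lower by at least 2-fold, *Dusp16* was lower by 1.60-fold, and *Dusp10* was the gene furthest in the opposite direction, 1.80-fold higher. On the scaled signals 6 genes were lower and 4 were higher. Without scaling between the arrays *Dusp4*, *Dusp6* and *Dusp16* were still lower and the other 7 were higher. The unscaled log2 difference of *Dusp16* was -0.19, within the 0.229 SD of repeated spots described below, and its dimmer probe was at 0.28. 2 of the 10 genes, or 20.0%, passed the 2-fold limit, both of them lower. Among all 16885 genes measured on both arrays 1.39% were lower by 2-fold or more, 1.99% were higher and 3.38% passed the limit in either direction. The log2 differences of the 10 genes ran from -1.19 to 0.84 with a median of -0.18, and those of all measured genes had a median of 0.10, with the middle 95% between -0.81 and 0.93. The median size of the difference, whatever its sign, was 0.40 over the 10 genes and 0.26 over all genes. Because the 10 genes were chosen with earlier results of these data known, these comparisons with all genes are not independent of the data.

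On these single arrays the measurement error was taken from the scatter of repeated spots. Of the 399 probes printed 10 times, those with a signal well above background were used, 329 on the vehicle array and 340 on the other. Its SD on the log2 scale was 0.070 with vehicle and 0.063 with IR-61 for log2 signals of 10 or more, 0.178 and 0.144 between 6 and 10, and 0.347 and 0.296 under 6. Each of the 12 phosphatase probes was printed once, so the SD expected for a difference was taken from the probes of like signal, and it leaves out the difference between cultures. The differences of *Dusp5*, *Dusp8* and *Dusp14* were smaller than this SD.

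**Figure D1:**
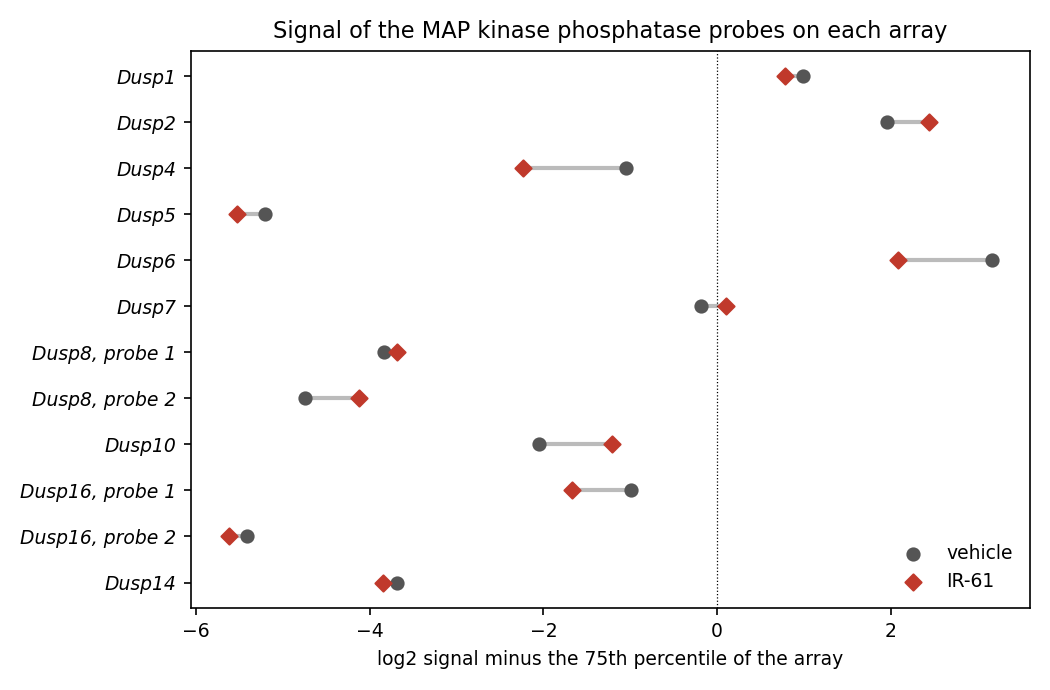
Signal of each of the 12 probes on the vehicle array (grey circles) and the IR-61 array (red diamonds), as the log2 signal minus the 75th percentile of its array (dotted line at 0). The widest gaps are those of *Dusp4* and *Dusp6*, where IR-61 lies to the left, and of *Dusp10*, where it lies to the right. Positions of different probes are not comparable with each other as RNA levels.

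*Dusp1*, *Dusp2*, *Dusp4* and *Dusp5* encode the nuclear phosphatases, which are products of inducible genes. *Dusp4*, which acts on ERK and JNK, had a signal of 609.5 with vehicle and 375.4 with IR-61. These are 0.482 and 0.212 of the 75th percentile of their arrays, a 2.28-fold lower level. The log2 difference of *Dusp4* was -1.19, 5.19 times the spot SD of 0.229, and it took rank 149 of 16885 genes counted from the lowest difference. Its raw signal was lower too, at 0.616 of that on the vehicle array, although the IR-61 array was the brighter one.

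*Dusp1*, which inactivates p38 and JNK in particular and is strongly induced by glucocorticoids and by Toll-like receptor ligands, had a signal of 2499.5 with vehicle and 3043.6 with IR-61. Relative to the 75th percentile these were 1.98 and 1.72. The log2 difference of *Dusp1* was -0.20 with an SD between spots of 0.094, but it turned to 0.28 without scaling, so its direction rests on the scaling. Of all measured genes 21.1% had a difference as low or lower.

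*Dusp2*, an immune cell phosphatase, was the only nuclear member that was higher on the scaled signals. Its signal was 4910.6 with vehicle and 9595.5 with IR-61, or 3.89 and 5.42 times the 75th percentile. This gave a log2 difference of 0.48, a 1.39-fold higher level and 5.06 times the SD between spots. For *Dusp5*, a phosphatase for nuclear ERK, the signal was 34.4 with vehicle and 38.6 with IR-61, close to the lowest signals above background. The log2 difference of *Dusp5* was -0.32 with an SD between spots of 0.456, and it was 0.17 without scaling, so no direction can be read from it.

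Of the 10 genes, *Dusp6* and *Dusp7* encode cytoplasmic phosphatases that are selective for ERK. *Dusp9*, chosen after its values were seen, encodes another but was placed in the list of other dual-specificity phosphatases. The *Dusp9* signals were dim, at 80.5 with vehicle and 70.3 with IR-61. Its log2 difference was -0.68 with a spot SD of 0.229, and -0.20 without scaling. *Dusp6*, a transcriptional target of ERK signaling in many cells, had a signal of 11274.8 with vehicle and 7468.1 with IR-61. Relative to the 75th percentile the level went from 8.93 to 4.21, or 2.12-fold lower. Its log2 difference of -1.08 was 11.5 times the SD of 0.094 between spots, the largest such ratio of the 10 genes, and took rank 185 of 16885 counted from the lowest. The raw signal of *Dusp6* with IR-61 was 0.662 of that with vehicle. *Dusp7*, which shares its preference for ERK, differed in the opposite direction. It had a signal of 1113.2 with vehicle and 1896.6 with IR-61, or 0.881 and 1.07 times the 75th percentile, and a log2 difference of 0.28. This is 2.97 times the SD between spots, and 69.9% of all measured genes had a difference as low or lower, so *Dusp7* lay well inside the range of the array.

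*Dusp8*, *Dusp10* and *Dusp16* encode the phosphatases that prefer JNK and p38 over ERK. *Dusp10*, which restrains JNK in innate and adaptive immune cells, had a signal of 304.5 with vehicle and 767.0 with IR-61. Relative to the 75th percentile this was 0.241 and 0.433, with a log2 difference of 0.84. That is 3.69 times the SD of 0.229 between spots, and *Dusp10* took rank 605 of 16885 counted from the highest difference. Without scaling its log2 difference was 1.33 and passed the 2-fold limit.

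*Dusp16*, a phosphatase for JNK that shuttles between nucleus and cytoplasm, was lower on both of its probes after scaling. The brighter probe of *Dusp16* had a signal of 635.2 with vehicle and 555.8 with IR-61 and a log2 difference of -0.68, or 2.98 times the SD between spots. On the dimmer probe of *Dusp16* the signals were 29.8 and 36.2, and its log2 difference of -0.21 was smaller than the SD of 0.456 and turned to 0.28 without scaling. *Dusp8*, known best from brain and heart, was also read by a pair of probes. The brighter one had a signal of 88.4 with vehicle and 137.9 with IR-61 and a log2 difference of 0.15, within the SD of 0.229. The dimmer *Dusp8* probe gave signals of 47.2 and 102.0 and a log2 difference of 0.62, which is 1.66 times its SD of 0.376. Both probes of *Dusp8* were thus higher with IR-61, the brighter of them by less than the spread between spots.

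*Dusp14* encodes a small atypical phosphatase without the kinase interaction domain of the other members, known as a negative regulator of T cell receptor signaling. Its signal was 98.1 with vehicle and 123.0 with IR-61, and its log2 difference of -0.16 was smaller than the SD of 0.229 and turned to 0.33 without scaling.

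**Figure D2:**
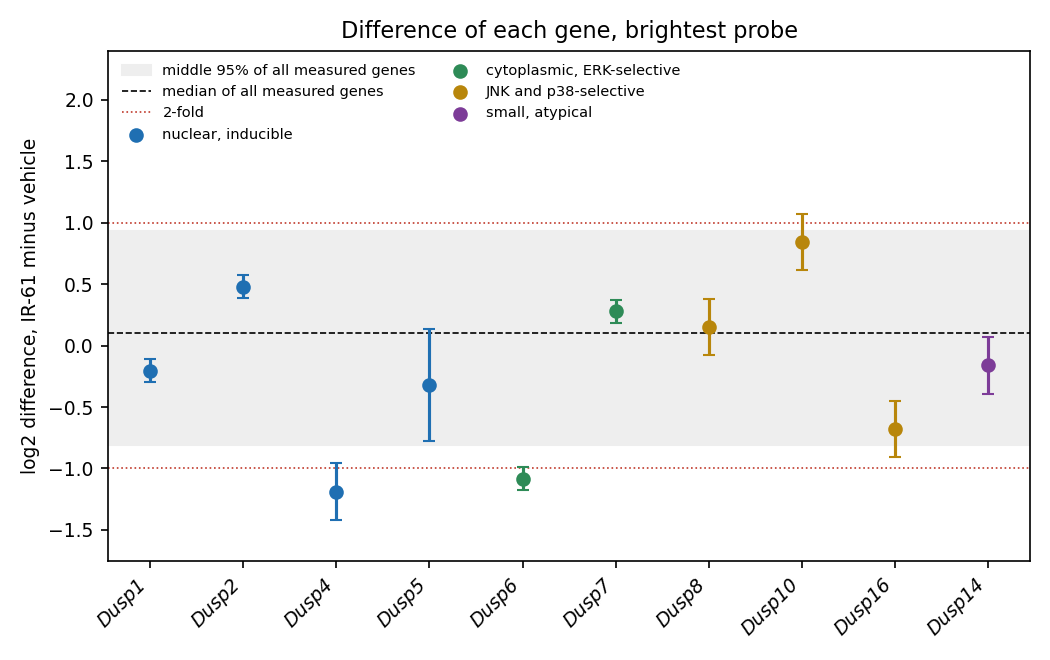
Log2 difference, IR-61 minus vehicle, of the brightest probe of each gene after division by the 75th percentile of the array, coloured by role. Error bars are the spot SD of a difference, from repeated probes of like signal. They do not cover the difference between cultures or between probes of 1 gene. The grey band holds the middle 95% of the 16885 genes measured on both arrays (-0.81 to 0.93), the dashed line is their median of 0.10 and the dotted lines mark 2-fold. *Dusp4* and *Dusp6* lie below the band.

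How many of the 10 genes counted as lower or higher in absolute terms depended on the scaling, since the median of all measured genes was 0.10 with it and 0.59 without it, and -0.03 with normexp background correction. Without scaling no member passed the 2-fold limit downward and 1 of 10 passed it upward (*Dusp10*), against 0.426% and 12.8% of all measured genes. With normexp 1 of the 10 was lower by 2-fold or more (*Dusp4*), against 0.883% of all genes. None was lower by 3-fold in the main values, against 0.379%. Scaling by the array median turned the split of all genes past 2-fold from 235 lower and 336 higher to 295 lower and 249 higher, and left the calls of the 10 genes as they were. Relative to the median of all measured genes, *Dusp1*, *Dusp4*, *Dusp5*, *Dusp6*, *Dusp14* and *Dusp16* were lower and *Dusp2*, *Dusp7*, *Dusp8* and *Dusp10* were higher in the main values and in all 11 alternative settings run. A shift of a whole array cancels on this measure. Array-median scaling, the 75th percentile over detected probes and no scaling thus gave the main values by construction. *Dusp5* at -0.42 and *Dusp8* at 0.05 lay within their spot SDs of 0.456 and 0.229, so no side is read for them. *Dusp14* at -0.26 lay little beyond its SD of 0.229. On this measure *Dusp4* was at -1.29 and lay between -1.29 and -1.08 under the alternatives. *Dusp6* was at -1.18 and lay between -1.22 and -0.96, and *Dusp16* was at -0.78 and lay between -0.78 and -0.52. *Dusp10* was at 0.74 and lay between 0.70 and 0.83, and *Dusp2* was at 0.38 and lay between 0.37 and 0.45. The order of the extremes was thus *Dusp4* and *Dusp6* at the low end, which do not differ from each other beyond their SD between spots, then *Dusp16*, with *Dusp10* at the high end.

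**Figure D3:**
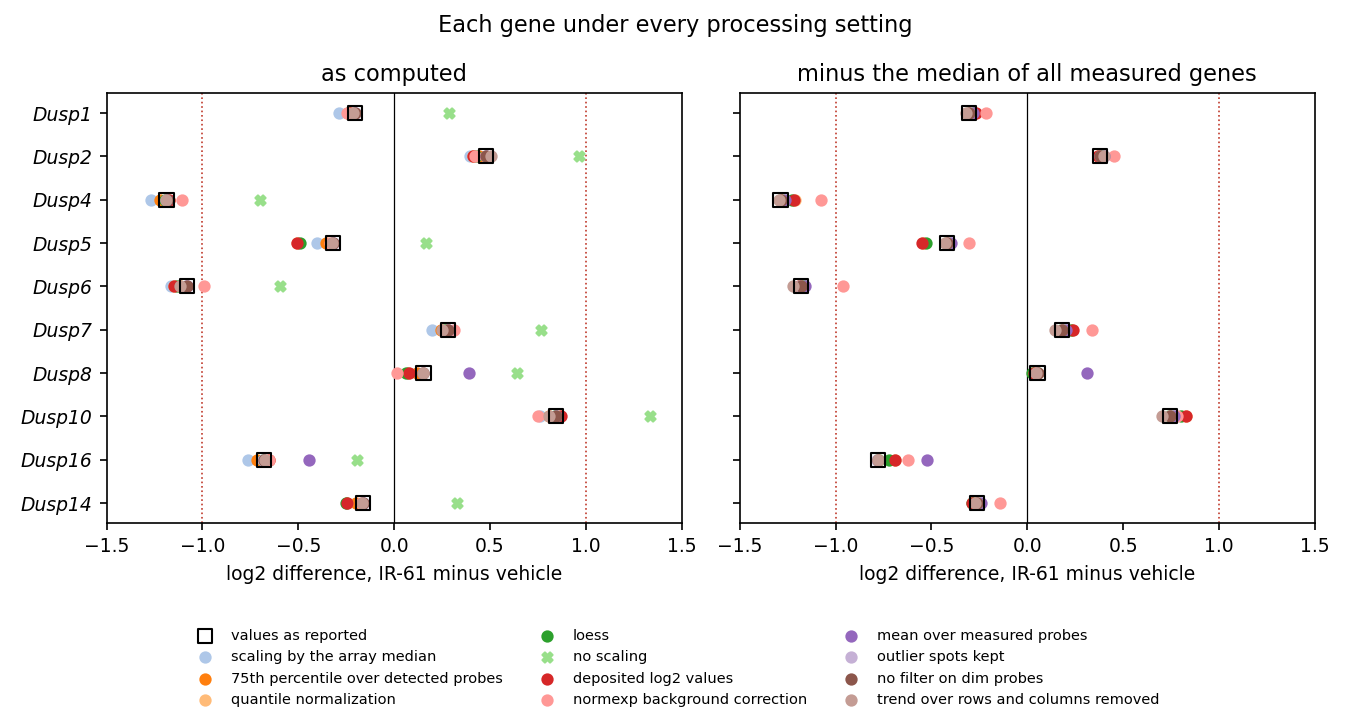
Log2 difference of each gene under the values as reported (open squares) and 11 other settings, as computed (left) and minus the median of all measured genes under the same setting (right). Dotted lines mark 2-fold. Without scaling (green crosses) all genes move to the right in the left panel. In the right panel a shift of a whole array cancels, so that setting gives the values as reported by construction.

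The stretches of DNA just before the start of these genes are shown for *Dusp6* and *Dusp10*, which lay at opposite ends of the differences, and for *Dusp1*, *Dusp5* and *Dusp8*, which hold the longer motifs searched. RefSeq promoter windows of build GRCm38.p6 were found for 9 of the 10 genes, all but *Dusp4*, and the 250 bases before the start were searched on both strands. The motifs were TGACGTCA, the cyclic AMP response element, its core TGACG (read as CGTCA on the other strand and part of each full element), the AP-1 site TGANTCA, the NF-κB consensus and the consensus of the serum response element. Capitals mark matches, and each sequence runs 5′ to 3′ on the strand of its gene.
Dusp6 (GRCm38.p6, chr10:99262981-99263230, plus strand): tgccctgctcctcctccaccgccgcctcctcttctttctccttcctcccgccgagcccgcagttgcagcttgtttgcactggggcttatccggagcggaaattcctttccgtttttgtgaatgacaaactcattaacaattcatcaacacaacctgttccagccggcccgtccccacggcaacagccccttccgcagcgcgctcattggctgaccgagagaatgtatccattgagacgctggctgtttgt
Dusp10 (GRCm38.p6, chr1:184034131-184034380, plus strand): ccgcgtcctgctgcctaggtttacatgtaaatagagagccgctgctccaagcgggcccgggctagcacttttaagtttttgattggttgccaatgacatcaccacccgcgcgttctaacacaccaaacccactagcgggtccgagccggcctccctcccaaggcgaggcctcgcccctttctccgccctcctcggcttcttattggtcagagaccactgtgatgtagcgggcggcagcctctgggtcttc
Dusp1 (GRCm38.p6, chr17:26508473-26508722, minus strand): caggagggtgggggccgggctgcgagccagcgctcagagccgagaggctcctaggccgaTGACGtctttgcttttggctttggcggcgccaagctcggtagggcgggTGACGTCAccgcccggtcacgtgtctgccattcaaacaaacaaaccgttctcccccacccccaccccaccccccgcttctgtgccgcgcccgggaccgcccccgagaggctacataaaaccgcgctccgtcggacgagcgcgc
Dusp8 (GRCm38.p6, chr7:142095285-142095534, minus strand): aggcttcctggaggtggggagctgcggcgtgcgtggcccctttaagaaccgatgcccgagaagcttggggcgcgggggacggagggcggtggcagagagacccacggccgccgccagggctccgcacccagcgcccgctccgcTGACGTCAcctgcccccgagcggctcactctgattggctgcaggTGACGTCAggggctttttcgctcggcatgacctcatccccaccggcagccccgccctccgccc
Dusp5 (GRCm38.p6, chr19:53528895-53529144, plus strand): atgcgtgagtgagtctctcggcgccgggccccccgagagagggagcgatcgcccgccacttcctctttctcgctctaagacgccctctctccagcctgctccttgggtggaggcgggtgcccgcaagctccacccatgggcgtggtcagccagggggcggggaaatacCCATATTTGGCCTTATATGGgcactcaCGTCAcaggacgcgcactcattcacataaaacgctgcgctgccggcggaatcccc

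TGACGTCA was present in the windows of *Dusp1*, at 143 bases before the start, and of *Dusp8*, at 107 and 63 bases, and in 1.55% of all 32851 promoter windows of the same length. The core TGACG was found in 4 of the 9 windows, those of *Dusp1*, *Dusp5*, *Dusp8* and *Dusp16*, and in 17.8% of all windows. *Dusp5* alone of the 9 held the serum response element consensus, at 82 and 72 bases before the start, against 1.47% of all windows. None of the 9 windows held TGANTCA, present in 6.75% of all windows, or the NF-κB consensus, present in 3.90%. *Dusp6* and *Dusp10*, the genes with the lowest and the highest difference among these 9, had no match to any of the motifs in this window, and neither did *Dusp2*, *Dusp7* and *Dusp14*. The 2 genes with TGACGTCA had log2 differences of -0.20 and 0.15. A match is a description of these letters only.

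The other genes of the MAP kinase pathway were taken from 8 lists of 97 genes, of which 95 were on the array and 90 were measured on both arrays. 2 of the 90 were lower by 2-fold or more and 2 were higher, together 4.44%, against 3.38% of all measured genes. Their median log2 difference was 0.16, close to the 0.10 of all genes. Counts of 0 given below for genes past 2-fold are those of the scaled signals. Without scaling 1 MAP kinase, 2 scaffolds and 2 Sprouty or Spred genes were higher by at least 2-fold, and with no filter on dim probes 1 other dual-specificity phosphatase and 1 Sprouty or Spred gene were.

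Of the 7 measured phosphatases outside the dual-specificity family that act on MAP kinases, 1 was lower by 2-fold or more. This was *Ptpn7*, a tyrosine phosphatase of blood cells that binds ERK and p38, with a signal of 1432.6 with vehicle and 876.3 with IR-61 on its brighter probe and a log2 difference of -1.20. Its dimmer probe, at 73.9 and 81.8, gave -0.34, so the 2 probes of *Ptpn7* differed in size. Its difference was inside the limit without scaling, at -0.71, and with the mean over its probes. The highest difference of that list was 0.50, for *Ppm1d*, a phosphatase of p38 that is induced by p53. None of the 17 measured genes among the other dual-specificity phosphatases passed the 2-fold limit, with a median of 0.006. *Dusp18*, a small atypical phosphatase, came closest at -0.95, with -0.93 on its second probe, and *Dusp26* was highest at 0.48. *Dusp18* passed the limit in 4 of the 11 other settings (array median, quantile, loess and deposited values), down to -1.06. *Epm2a*, the glycogen phosphatase laforin, was not well above background with vehicle and had a bound of 0.06 on the log2 scale.

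None of the 14 MAP kinases passed the limit, and their median was 0.23. Besides the highest and the lowest gene, some substrates of the phosphatases are given here although none passed the limit. These substrates were chosen after their values were seen. On their brightest probes *Mapk3*, which encodes ERK1, had -0.28, *Mapk14*, which encodes p38α, had 0.14, *Mapk8* and *Mapk9*, which encode JNK1 and JNK2, had 0.25 and 0.33, and *Nlk*, an atypical member, was highest at 0.64. The value of *Mapk3* was 0.21 without scaling. Its dimmer probe gave -0.44, and 0.05 without scaling. The dimmer probe of *Mapk9* and of *Mapk14* gave the opposite sign, at -0.16 and -0.37, the former within its spot SD of 0.229. The dimmer probes of *Mapk8* gave -0.32 and 0.52, the former within the spot SD of 0.456 of each. The lowest was *Mapk15* at -0.36, which was 0.13 without scaling.

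None of the 7 MAP kinase kinases passed the limit either. *Map2k3*, an activator of p38, was lowest, with signals of 2187.9 and 1626.2 and a log2 difference of -0.92, and *Map2k7*, an activator of JNK, was highest at 0.28, a value that was -0.007 with normexp background correction. Among 19 measured MAP3 kinases the median was 0.18 and only *Map3k12* passed the limit. Its signal was 25.8 with vehicle and 92.0 with IR-61, near background with vehicle, and its log2 difference of 1.35 was 0.36 with normexp. *Map3k6* was lowest of this list at -0.75.

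Of the 11 kinases that MAP kinases activate, *Rps6ka2* was lower, at -1.27, and *Rps6ka6* was higher, at 1.23. Both encode ribosomal S6 kinases downstream of ERK. *Rps6ka2* had signals of 102.3 and 59.4 and *Rps6ka6* of 18.5 and 60.8, and with normexp both were inside the limit, at -0.86 and 0.22. The 9 measured scaffolds and the 6 measured Sprouty and Spred genes, further feedback inhibitors of the ERK pathway, held none past the limit. Their medians were 0.18 and 0.21, and they ran from *Arrb2* at -0.75 to *Ksr1* at 0.60 and from *Spred2* at -0.72 to *Spry1* at 0.58. *Spred3* was not well above background with vehicle and had a bound of 0.12. The Sprouty and Spred genes thus lay on both sides of the median of all measured genes, 2 of the 6 below it. Relative to that median *Spred2* was at -0.82, on a dim probe with a signal of 85.2 with vehicle, and *Dusp6* was at -1.18. No test of the difference between these groups was possible.

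**Figure D4:**
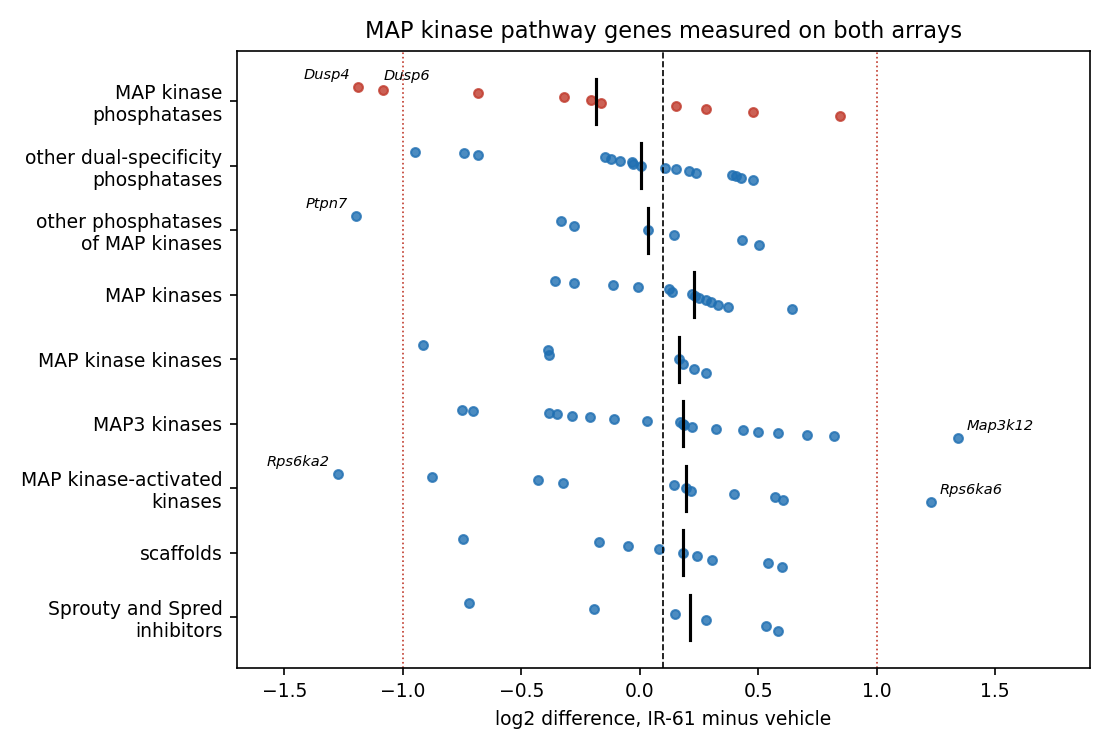
Log2 difference, IR-61 minus vehicle, of the brightest probe of each gene measured on both arrays, for the 10 MAP kinase phosphatases (red) and 8 other lists of the pathway (blue). Black bars are list medians, the dashed line is the median of all measured genes (0.10) and dotted lines mark 2-fold. *Dusp4*, *Dusp6*, *Ptpn7* and *Rps6ka2* lie past the lower limit and *Map3k12* and *Rps6ka6* past the upper one.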

How the data were processed

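The authors labelled RNA of each culture with Cy3, scanned the arrays and deposited, for every spot, the intensity from Agilent Feature Extraction, background-subtracted and detrended within the array but not scaled between arrays. Per the file headers the software was version 11.0.1.1, and the submitters' processing notes name 11.0.0.1. The array design names an older mouse assembly, so the gene table of GRCm38.p6 was used for names only. A table of log2 values that the authors deposited beside it has columns that share their quartiles (4.59 and 10.66 on the log2 scale), as quantile normalization gives. Its columns followed the log2 intensities across probes (Pearson r of 0.9995 with vehicle, 0.9988 with IR-61), and how it was made is not given in the sources used here.

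Control spots and outlier spots (124 with vehicle, 139 with IR-61) were left out, repeated spots were averaged on the log2 scale and the 75th percentile over 39419 probes was subtracted. By RefSeq accession 27224 probes were named. A gene took its brightest unsaturated probe. A probe not well above background on 1 array gives a bound, for which its signal there was raised to the lowest well-above-background signal of that array if it lay under it. Genes measured on both arrays numbered 16885. A 2-fold difference was the limit for a call. No test was run with 1 array per condition, and the number of arrays limits the precision. The members and lists were chosen with earlier results of these data known. The named genes are all members, plus in each other list the genes past 2-fold and the lowest and highest. Some further genes were chosen after their values were seen and are marked so. Of the lists, *Map3k10*, *Ksr2* and *Cd68* matched no probe by accession. The steps were tested on simulated data. Alternatives were other scalings (median, 75th percentile over detected probes, quantile, loess, none), the deposited values, normexp, the mean over probes, outlier spots kept, no filter on dim probes, a trend over rows and columns removed, and a 3-fold limit. Normexp (offset 50) ran on the median spot signal. On the IR-61 array 4 spots with a local background above their signal were given the array's median background, a step chosen after seeing the data. Protein sequences were not used here. The values of 1 gene of the lists are not reported here. Normexp was fitted with limma 3.58.1 in R 4.3.3. All other steps ran in Python 3.11.15, with pandas 2.3.3 and numpy 2.4.6 for the values, statsmodels 0.14.6 for loess and matplotlib 3.10.9 for the plots.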

Additional observations from a re-analysis of the deposited data

How the results depend on the processing

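No paired analysis was possible because there was 1 array for vehicle and 1 for IR-61, which leaves nothing to pair within a test. The number of phosphatases lower by 2-fold or more was 2 in the main values and stayed at 2 except in 3 cases. It was 1 with normexp, where *Dusp6* was at -0.99, 0 without scaling, where *Dusp4* was at -0.70 and *Dusp6* at -0.59, and 0 with the 3-fold limit. The number higher by 2-fold or more was 0, and 1 without scaling (*Dusp10*, 1.33). The median over the 10 genes was -0.18. It was 0.31 without scaling, where the median of all genes was 0.59, and between -0.27 and -0.18 under the other settings. *Dusp4* lay between -1.27 and -1.11 and *Dusp6* between -1.17 and -0.99 under the settings other than no scaling. *Dusp1*, *Dusp5* and *Dusp14* changed sign only without scaling. Of the 11 alternatives to the values, *Dusp4* passed the limit in 10 and *Dusp6* in 9. The split of all genes past 2-fold moved from 235 lower and 336 higher to 295 and 249 with the array median, 279 and 257 with quantile normalization, 277 and 252 with loess, 72 and 2156 without scaling, 149 and 124 with normexp, and 440 and 921 with no filter on dim probes. The cause of the change with normexp was not tested. Signals near background, as those of *Dusp5*, allow no direction to be read.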

Other observations

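Of the other pathway genes 29 had several probes measured on both arrays, and in 16 of them the probes gave log2 differences of both signs. In 1 of the 29 a dimmer probe passed the 2-fold limit while the brightest did not. This was *Braf*, a MAP3 kinase that feeds into ERK, chosen after its values were seen, with a log2 difference of 0.03 on its brighter probe (signals of 843.3 and 1209.3) and of -1.59 on its dimmer probe (signals of 153.9 and 71.8). For *Ssh2*, a cofilin phosphatase chosen in the same way, the brighter probe gave -0.08 and the dimmer one, not well above background with IR-61, a bound of -1.33.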
